A study of Mus musculus with 36 samples.

Results

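The comparison described here is that of 2 natural killer (NK) cell subsets sorted from the spleens of B2m-knockout mice: cells without Ly49I (TN) and cells with it (SP). Its members were the 3 TN and 3 SP libraries of the knockout mice, taken by their column names, 6 of the 36 libraries of the series and 6 of the 18 in the table of sorted subsets. All cells were sorted as CD27-CD11b+, the mature splenic gate. SP cells were Ly49C-Ly49I+NKG2A- and TN cells were Ly49C-Ly49I-NKG2A-. TP cells, used here for levels, the spread between libraries and the choice of genes to test, carried Ly49C, Ly49I and NKG2A. The knockout mice were B2m-/-, and the wild-type mice set beside them were B2m+/+ C57BL/6. The labels number the libraries of each group as biological replicates 1 to 3 and do not say whether the same number in 2 subsets stands for the same mouse. They give neither age nor sex.

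Ly49 receptors and NKG2A are inhibitory or activating lectin-like receptors, coded side by side in the NK gene complex, and each NK cell expresses its own subset of them. The inhibitory ones bind class I major histocompatibility complex (MHC) molecules on other cells, and in a host that has the ligand a cell with such a receptor becomes more responsive, a process called education or licensing. B2m codes for beta-2 microglobulin, the light chain that class I molecules need to reach the cell surface, so in a B2m-knockout host Ly49I is carried by the SP cells while its ligand is largely missing.

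The markers of the sort and of the genotype were checked first. Levels are in TPM, which corrects reads for gene length and scales each library to a common total, so the number of reads behind a value is unknown. B2m was at 106.67, 105.72 and 109.94 TPM in the knockout SP libraries and at 117.03, 94.84 and 128.47 TPM in the knockout TN libraries. The means of the wild-type SP and TN libraries were 3215 and 2977 TPM, so all 6 knockout libraries lay far below them, though not at 0. Klra9, which codes for Ly49I (ENSMUSG00000033024), was at 1191.00, 1198.92 and 1497.52 TPM in knockout SP and at 172.08, 128.85 and 174.06 TPM in knockout TN cells. The sort selected on this receptor, so the 8.18-fold ratio of the means describes the sort and is no finding; the transcript was lower in every TN library but not at 0. Klra3, which codes for Ly49C, had means of 1.12 and 0.667 TPM in SP and TN cells, against 341.6 TPM in knockout TP cells. Klrc1, which codes for NKG2A, was at 30.4 ± 7.76 TPM in SP and 18.6 ± 1.76 TPM in TN cells (SD, n = 3), against 931.9 TPM in TP cells. Both subsets thus carried the transcript pattern of their gate. Itgam, the CD11b gene, had means of 646 and 585 TPM in SP and TN cells. Cd27, the marker the gate left out, was at 156 ± 12.3 and 206 ± 29.0 TPM (SD, n = 3). Neither passed the test. Even so, every TN library lay below every SP library for Itgam and above every SP library for Cd27. Of all tested genes, 10.9% had groups that did not overlap.

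The 6 libraries summed to between 938035 and 947066 TPM, and between 13195 and 14501 genes were above 0 in each. Pearson correlations of log2 values across genes were 0.9572 to 0.9649 within the SP libraries, 0.9395 to 0.9537 within the TN libraries and 0.9413 to 0.9616 between the subsets. The TN libraries were thus less alike than the SP libraries, and the range between the subsets overlapped both. Markers of other cells were sparse. The 12 neutrophil markers summed to between 0 and 5.85 TPM in SP and between 0 and 0.82 TPM in TN libraries. The 10 T cell markers found summed to 181 to 231 TPM in SP and 170 to 204 TPM in TN, most of it Trbc2, a T cell receptor constant segment that NK cells also transcribe. The 14 B cell and plasma cell markers summed to 204 to 234 TPM in SP and 225 to 241 TPM in TN, most of it Ighm, the IgM heavy chain gene, at 201 ± 10.9 TPM in SP and 220 ± 6.81 TPM in TN cells (SD, n = 3). The 17 monocyte, macrophage and dendritic cell markers summed to 12.8 to 15.3 TPM in SP and 7.42 to 13.0 TPM in TN. Of 6 tested markers of other innate lymphoid cells, 1 was higher and 1 lower at an unadjusted limma p below 0.05 (1.39% and 1.38% of all tested genes). The higher one was Il7r, with means of 0.357 TPM in SP and 2.46 TPM in TN cells and groups that overlapped. The lower one was Itga1, with means of 3.45 and 1.10 TPM and groups that did not overlap. No member of these lists passed the test in knockout mice, and their part in the results was not tested. In sorted bulk cells, fewer cells of a type and less RNA per cell cannot be told apart. The knockout TP libraries enter the estimate of the spread and the mean over 18 libraries that decided which genes were tested. They stood apart from the others in such markers. Their means were 23.4 TPM for the neutrophil gene Ltf and 135.5 TPM for the immunoglobulin gene Igha. Both genes were listed at 0 in all 3 knockout TN libraries.

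Few genes passed the test between the subsets, in which the median SE of a log2 difference was 0.25. Differences are TN minus SP of log2(TPM + 1), which understates changes of low genes. Calls needed a limma adjusted p below 0.05, with Benjamini-Hochberg adjustment over the 12018 genes that averaged 1 TPM or more. TN cells had 5 called genes (0.0416%), of which 2 were higher (0.0166%) and 3 lower (0.025%) than in SP cells, and 1 of the 3 was Klra9 itself. Tcf7 and the annotated pseudogene Klra13-ps rose, and Klrb1b and Klrg1 fell. At an unadjusted p below 0.05 there were 333 genes (2.77%), 167 higher (1.39%) and 166 lower (1.38%), and 1309 genes (10.9%) had TN and SP values that did not overlap. The median difference over all tested genes was -0.02. Only Klra9 was called with a difference of 2-fold or more. The count of 5 became 3 without SP replicate 1, 9 without SP replicate 3 and 3 without TN replicate 3. It also became 3 without the TP libraries, where Klra13-ps (limma adjusted p = 0.0694) and Klrg1 (0.1161) lost their calls. Without a variance trend, or with the 6 libraries fitted alone, Klra9 was the only 1 of the 5 still called.

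The sequences that the Ly49 results below refer to are the 250 bases upstream of the annotated start sites of Klra9, the gene the sort selected on, and of Klra7, Klra4 and Klra1, the intact family members with the lowest p among those higher in TN cells. They are from RefSeq, build GRCm38.p6, chromosome 6, minus strand, written 5′ to 3′ and ending at the base before the start site. Capitals mark a match to CTTTGNN with only A or T in place of N, the letters bound by the TCF family to which the called gene Tcf7 belongs, searched on both strands.
Klra9, chr6:130193113-130193362: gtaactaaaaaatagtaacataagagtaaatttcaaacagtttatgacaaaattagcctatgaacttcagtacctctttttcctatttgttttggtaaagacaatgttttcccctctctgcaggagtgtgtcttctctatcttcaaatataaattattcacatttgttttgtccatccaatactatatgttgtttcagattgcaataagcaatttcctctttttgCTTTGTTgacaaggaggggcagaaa
Klra7, chr6:130233323-130233572: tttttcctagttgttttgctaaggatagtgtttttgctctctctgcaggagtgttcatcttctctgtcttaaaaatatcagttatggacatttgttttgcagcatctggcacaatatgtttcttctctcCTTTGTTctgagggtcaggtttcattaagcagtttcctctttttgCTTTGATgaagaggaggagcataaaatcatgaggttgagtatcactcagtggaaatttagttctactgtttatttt
Klra4, chr6:130067272-130067521: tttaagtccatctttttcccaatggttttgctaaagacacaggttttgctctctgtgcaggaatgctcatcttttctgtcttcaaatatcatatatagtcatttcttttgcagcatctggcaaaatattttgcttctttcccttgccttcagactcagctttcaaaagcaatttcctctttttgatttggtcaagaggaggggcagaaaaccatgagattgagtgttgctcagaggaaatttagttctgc
Klra1, chr6:130386875-130387124: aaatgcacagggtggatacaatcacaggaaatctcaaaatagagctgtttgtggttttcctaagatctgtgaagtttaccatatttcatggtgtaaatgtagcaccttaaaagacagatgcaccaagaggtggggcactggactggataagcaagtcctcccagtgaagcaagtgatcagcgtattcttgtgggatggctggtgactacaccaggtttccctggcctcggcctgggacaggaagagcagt
The Klra9 window held 1 match, whose first base lay 25 bases before the start site, and the Klra7 window held 2, at 121 and 76 bases. The windows of Klra4 and Klra1 held none. A second annotated Klra7 start site, whose window (chr6:130231688-130231937) is not printed, held 1 match on the opposite strand at 247 bases. Of 32851 promoter windows of this length in the table, 4874 (14.8%) held a match. A match is a run of letters and not a shown binding site, and these data hold no measure of binding.

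Among the Ly49 genes, 1 besides Klra9 was called, and it was higher in TN cells. Klra13-ps (ENSMUSG00000030178), an annotated pseudogene and the most abundant family transcript here, was at 3065.76, 3115.62 and 3454.59 TPM in SP and at 4733.09, 4255.38 and 4669.22 TPM in TN cells. Every TN library lay above every SP library. The log2 difference was 0.50 ± 0.08 (SE; 95% interval 0.34 to 0.67), 1.42-fold by the means, with a limma adjusted p of 0.02172, and the gene was higher in 3 of 3 TN libraries. This call was lost when SP replicate 1 (adjusted p = 0.2159), SP replicate 2 (0.1436), TN replicate 1 (0.09777) or TN replicate 3 (0.1653) was left out, and the difference stayed between 0.47 and 0.56 over all alternatives run. Of the 50-base stretches of its annotated transcripts, 13.7% are shared with Klra7, so reads of the pair may have been divided between them by estimation.

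Klra4, which codes for the activating receptor Ly49D, was at 555.71, 619.82 and 681.37 TPM in SP and at 1088.00, 851.33 and 1054.84 TPM in TN cells. The groups did not overlap, and the difference of 0.69 (95% interval 0.41 to 0.96) did not pass the test (adjusted p = 0.08809 by limma). Klra7, which codes for the inhibitory receptor Ly49G, was at 723.76, 764.50 and 722.29 TPM in SP and at 1061.02, 922.52 and 933.10 TPM in TN cells, a difference of 0.40 (0.21 to 0.59; adjusted p = 0.2869). Here too all TN values were above all SP values. Klra1, which codes for Ly49A, an inhibitory receptor for H-2D molecules, was at 65.32, 77.77 and 78.70 TPM in SP and at 141.98, 104.06 and 124.38 TPM in TN cells, a difference of 0.73 (0.35 to 1.10; adjusted p = 0.4548). TCF-1 is known to be needed for normal acquisition of Ly49A, and its part in the Klra1 difference was not tested. The Klra1 window printed above held none of the letters searched, and bases outside its 250 were not searched.

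Klra8, which codes for Ly49H, the receptor of a mouse cytomegalovirus protein, had means of 1214 ± 233 TPM in SP and 1354 ± 164 TPM in TN cells (SD, n = 3), and its groups overlapped. The intervals of its difference (-0.13 to 0.46) and of those of Klra10 (-0.22 to 0.40), Klra14-ps (-0.42 to 0.11), Klra6 (-0.69 to 0.49), Klra5 (-0.31 to 1.14) and Klra3 (-1.22 to 0.50) all included 0. Klra2 and Klra17, the other members of the list, did not reach the mean of 1 TPM and were not tested. Of the 13 family members listed, 11 were tested, 1 was called higher and 1, Klra9, lower, and 9 were not called. Of all tested genes, 0.0166% were called higher and 0.025% lower. Groups did not overlap for 5 tested members that were higher and 1 that was lower, with 5.09% and 5.8% of all tested genes as the background. The median difference of the 11 was 0.17. The 13 genes summed to 7395 to 8788 TPM in SP and 8264 to 9331 TPM in TN libraries, which overlap. Without Klra9 the sum was 6203.98, 6602.01 and 7290.12 TPM in SP and 9159.07, 8135.42 and 9154.20 TPM in TN cells, with every TN library above every SP library. Klra13-ps weighs most in this sum, with means of 3212 and 4553 TPM in SP and TN cells, against mean sums of 6699 and 8816 TPM. The sum is therefore no measure of a rise of every member. Shares of 50-base stretches held in common with another gene were 31.5% for Klra9, 33.1% for Klra8 and 39.8% for Klra10, so the levels of these genes are uncertain, while Klra4 (4.68%) and Klra1 (2.98%) share little.

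**Figure D1:**
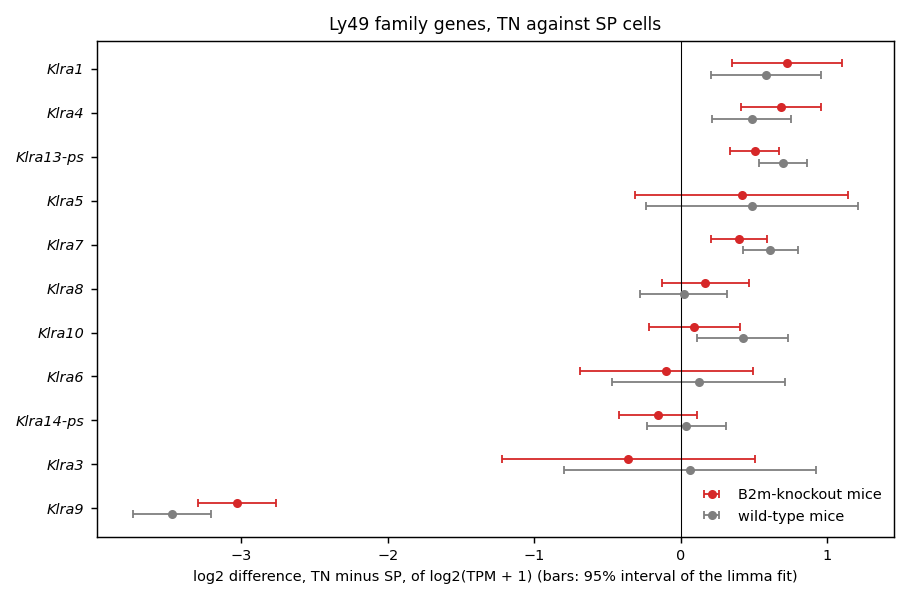
Log2 differences of TN minus SP, on the log2(TPM + 1) scale, for the 11 tested Ly49 genes in B2m-knockout (red) and wild-type (grey) mice, with bars for the 95% interval of the limma fit on 3 libraries a group. Klra9 lies at -3.03 in knockout mice, and Klra1, Klra4, Klra13-ps and Klra7 have knockout intervals wholly above 0.

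Of the other lectin-like receptors, Klrb1b and Klrg1 were called lower in TN cells. Klrb1b (ENSMUSG00000079298), which codes for the inhibitory receptor NKR-P1B, was at 346.81, 410.96 and 438.84 TPM in SP and at 214.86, 234.73 and 222.87 TPM in TN cells. The lowest SP library was above the highest TN library. The difference was -0.82 ± 0.11 (SE; 95% interval -1.06 to -0.59), 1.78-fold lower by the means in 3 of 3 TN libraries, with a limma adjusted p of 0.006532. This call held in each of the 6 fits that left out 1 knockout SP or TN library, and was lost without a variance trend (adjusted p = 0.07388) and with the 6 libraries fitted alone (0.2993). In knockout TP cells the mean was 710 TPM, above both. Of its 50-base stretches, 25.5% are shared with the overlapping gene model Gm44511, so its level carries that uncertainty.

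Klrg1 (ENSMUSG00000030114), which codes for an inhibitory cadherin receptor of mature NK cells, was at 85.44, 74.72 and 87.74 TPM in SP and at 45.07, 37.21 and 52.40 TPM in TN cells. TN and SP values did not overlap. The difference was -0.88 ± 0.14 (SE; 95% interval -1.17 to -0.58), 1.84-fold lower by the means in 3 of 3 TN libraries (limma adjusted p = 0.02172). This call was lost without SP replicate 1 (adjusted p = 0.2159), SP replicate 3 (0.09683), TN replicate 1 (0.07939) or TN replicate 2 (0.1194), with differences between -0.99 and -0.75 over all alternatives. Knockout TP cells had a mean of 142 TPM. Of the 17 receptors in this list, 16 were tested, 0 were called higher, 2 lower and 14 not called. Of all tested genes, 0.0166% were called higher and 0.025% lower. The median difference of the list was -0.02, the same to 2 decimals as over all genes.

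Tcf7 (ENSMUSG00000000782), which codes for TCF-1, a transcription factor of lymphoid development that declines as NK cells mature, was at 99.24, 87.96 and 93.39 TPM in SP and at 143.31, 150.81 and 166.57 TPM in TN cells. All TN values were above all SP values. The difference was 0.71 ± 0.10 (SE; 95% interval 0.49 to 0.93), 1.64-fold by the means in 3 of 3 TN libraries (limma adjusted p = 0.01325). Without SP replicate 2 the adjusted p was 0.0743 and without TN replicate 3 it was 0.09533. It was 0.07388 without a variance trend and 0.2652 with the 6 libraries fitted alone. The mean in knockout TP cells was 76.7 ± 2.66 TPM (SD, n = 3), below that of SP cells.

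Tcf7 was the single called member among 31 tested of 35 maturation and homing genes (0.0416% of all tested genes were called). At an unadjusted p below 0.05, 6 were higher and 5 lower (2.77% of all tested genes passed in either direction), and 13 had groups that did not overlap (10.9% of all tested genes). The median difference was -0.09. Id2, which codes for an inhibitor of E proteins that NK cells require, was at 851.36, 860.23 and 887.56 TPM in SP and at 687.95, 686.03 and 638.34 TPM in TN cells, a difference of -0.37 (-0.53 to -0.21; adjusted p = 0.1334). The groups were apart, without a call.

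Ly6c2, which codes for a surface protein of mature NK and memory T cells, was at 786.16, 609.69 and 923.85 TPM in SP and at 482.69, 326.39 and 491.72 TPM in TN cells. Its SP libraries spread widely but lay above all TN libraries. The difference of -0.84 (95% interval -1.15 to -0.52) had a limma adjusted p of 0.06015, and it was called without SP replicate 2 (0.02169). Kit, the stem cell factor receptor gene, was at 0.51, 1.24 and 3.57 TPM in SP and at 5.69, 10.09 and 3.93 TPM in TN cells, with the nearest libraries of the groups close together. Its difference of 1.52 (0.76 to 2.29) had an adjusted p of 0.3966, and it was called without SP replicate 3 (0.04116). Its wild-type means were 38.9 TPM in SP and 29.5 TPM in TN cells, above all 6 knockout libraries.

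Of 6 markers of mature NK cells, all tested, 1 was called lower in TN cells, Klrg1, and 0 higher (0.025% and 0.0166% of all tested genes). All 6 differences were below 0, 5 with groups that did not overlap (5.8% of all tested genes were lower in this way), and the median was -0.18. Summed, the 6 genes were at 2497 to 2583 TPM in SP and 2094 to 2296 TPM in TN cells. Cx3cr1, the fractalkine receptor gene of late-stage NK cells, had means of 42.6 ± 3.94 TPM in SP and 25.2 ± 4.77 TPM in TN cells (SD, n = 3), a difference of -0.75 (95% interval -1.17 to -0.32; limma adjusted p = 0.6506). The 12 general NK cell markers were all tested and none was called at an adjusted p below 0.05. At an unadjusted p below 0.05, 2 were lower and 0 higher (1.38% and 1.39% of all tested genes). The 12 summed to 24338 to 25917 TPM in SP and 22349 to 24246 TPM in TN cells.

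**Figure D2:**
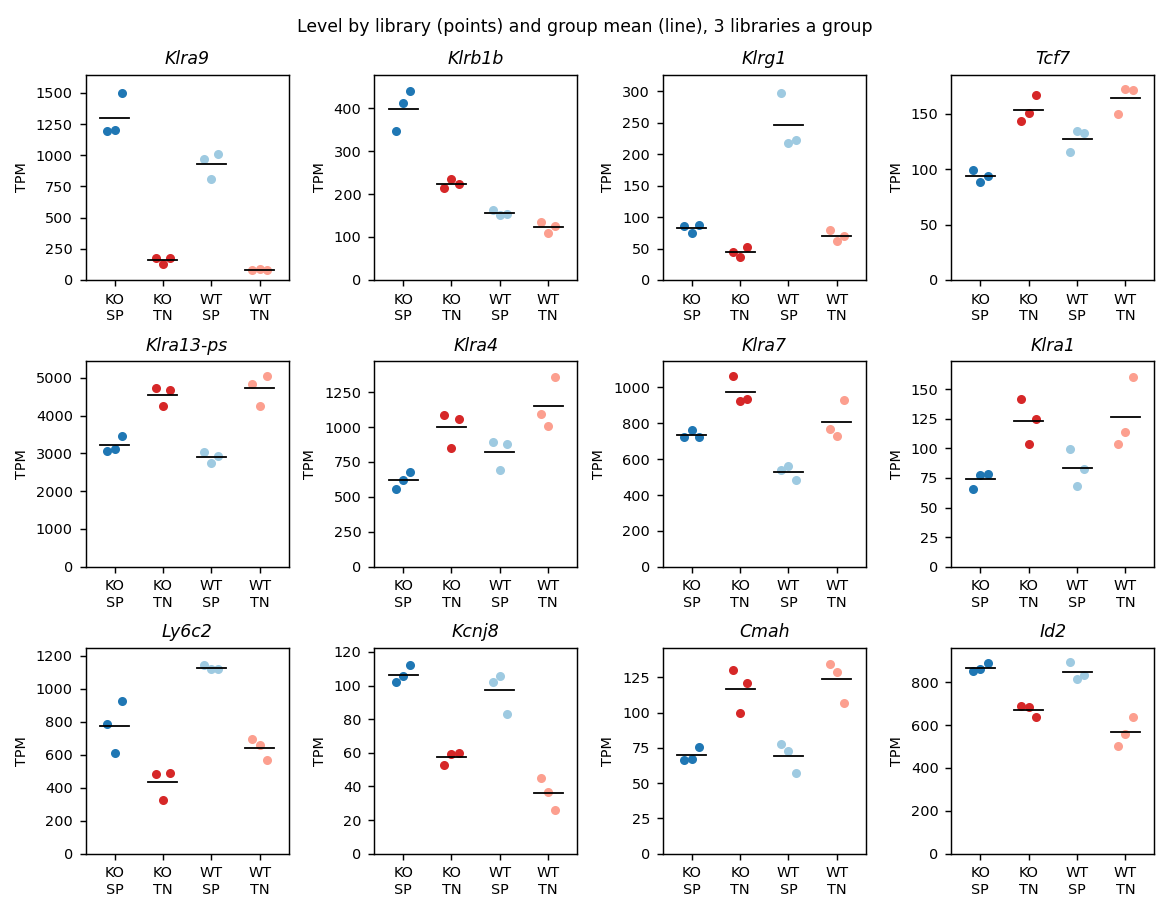
TPM in each library (points) and group mean (lines) for 12 genes, with SP and TN cells of knockout (KO, dark) and wild-type (WT, light) mice, 3 libraries a group, on linear axes from 0. In knockout mice Klra9, Klrb1b, Klrg1, Ly6c2, Kcnj8 and Id2 are lower and the others higher in every TN library than in any SP library.

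Effector genes showed no call among 19 tested of 21. At an unadjusted p below 0.05, 1 was higher and 3 were lower (1.39% and 1.38% of all tested genes), and the median difference was 0.11. Gzmb, which codes for the cytotoxic protease granzyme B, had means of 1141 ± 78.7 TPM in SP and 925 ± 83.9 TPM in TN cells (SD, n = 3), a difference of -0.30 (95% interval -0.48 to -0.13; limma adjusted p = 0.6641). Gzma, for granzyme A, had means of 9842 ± 584 and 8755 ± 645 TPM (adjusted p = 1 by limma), and Prf1, for the pore former perforin, 1465 ± 2.61 and 1291 ± 110 TPM (adjusted p = 1). For these 3 genes every TN library lay below every SP library, and the size of the difference in Gzma and Prf1 was at most 1.14-fold by the means.

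No tested member of the lists of proximal signalling, early response or anergy and exhaustion genes passed the test. All 23 proximal signalling genes were tested and 0 were called. Of them, 0 passed an unadjusted p below 0.05 by limma (2.77% of all tested genes did). Groups did not overlap for 0 of them (10.9% of all tested genes). Their differences ran from -0.24 to 0.80. The highest was that of Btk, at 0.31 ± 0.54 TPM in SP and 1.19 ± 0.29 TPM in TN cells (SD, n = 3). Of 19 tested early response transcription factors, which rise on recent stimulation, 0 were called and 0 passed the unadjusted threshold. Egr1, a member of that list, had means of 2.51 ± 0.38 and 4.49 ± 1.58 TPM (SD, n = 3), and Nr4a2 10.5 ± 3.33 and 7.16 ± 3.98 TPM. Of 16 tested anergy and exhaustion regulators, 0 were called and 1 passed the unadjusted threshold, the ectonucleotidase gene Entpd1, lower in TN cells (134.9 ± 25.7 and 81.2 ± 21.7 TPM; 95% interval of the difference -1.16 to -0.33).

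Among 20 tested activating receptors and adaptors, 0 were called. At an unadjusted p below 0.05, 4 were higher and 1 lower (1.39% and 1.38% of all tested genes). Of the higher ones, Cd7 was at 331 ± 31.3 TPM in SP and 394 ± 17.0 TPM in TN cells (SD, n = 3). Its difference was 0.25 (95% interval 0.06 to 0.44). Cd28, also higher, was at 21.7 ± 1.82 and 29.0 ± 2.95 TPM, a difference of 0.40 (0.05 to 0.75). The lower one was Cd226, which codes for the adhesion receptor DNAM-1, at 43.5 ± 13.9 TPM in SP and 25.4 ± 1.43 TPM in TN cells (SD, n = 3), with a difference of -0.70 (95% interval -1.21 to -0.20; limma adjusted p = 1). Among 9 tested of 19 other inhibitory and checkpoint receptors, 0 were called, and 1 was higher at the unadjusted threshold. Cd160, a receptor of herpesvirus entry mediator, was at 44.0 ± 3.67 and 63.1 ± 8.89 TPM, with 1.43-fold higher means in TN cells (adjusted p = 0.7336 by limma), and Lilrb4a was at 4.82 ± 0.43 and 9.85 ± 2.71 TPM. The median of the 9 was 0.28. Of 14 tested cytokine receptors, 20 genes of class I MHC and peptide loading, 21 interferon-stimulated genes, 20 cell cycle genes and 13 handling stress genes, 0 were called, and at an unadjusted p below 0.05 1 passed, the class I gene H2-D1 (2921 ± 115 and 2712 ± 82.8 TPM; 1.08-fold lower in TN cells). Medians of these 5 lists lay between -0.02 and 0.03. The summed handling stress genes ranged from 2316 to 3749 TPM in SP and from 2296 to 3738 TPM in TN libraries.

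**Figure D3:**
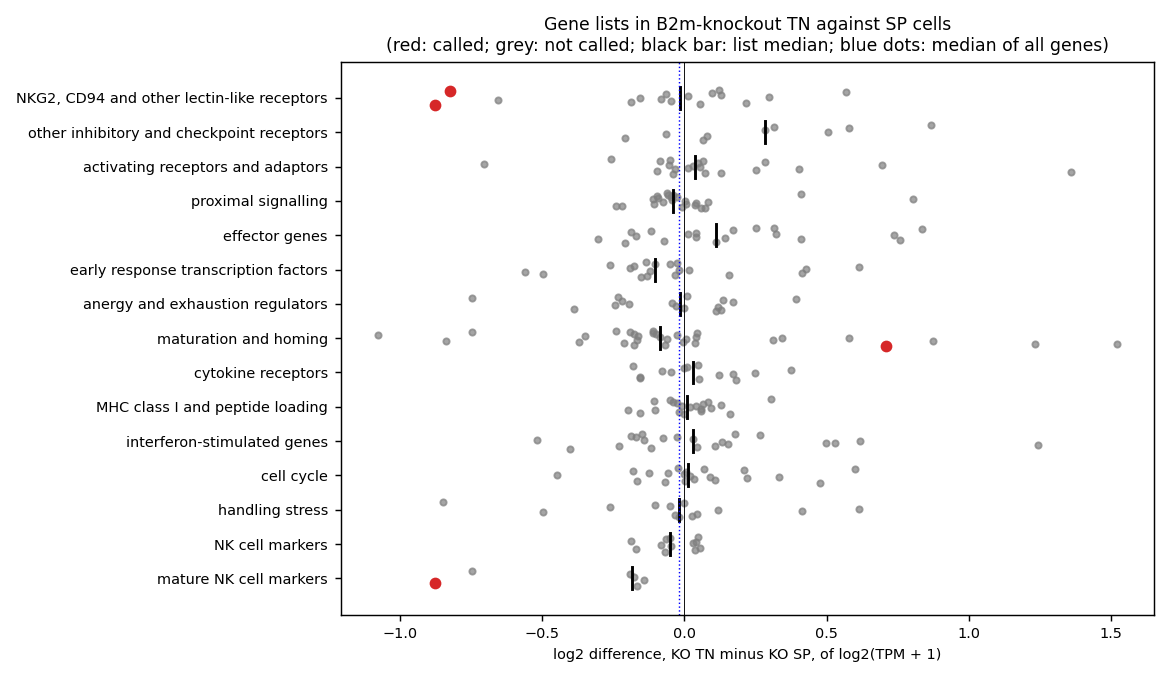
Log2 differences, knockout TN minus SP on the log2(TPM + 1) scale, of the tested members (points) of 15 gene lists, with called members in red, the list medians as black bars and the median of all tested genes, -0.02, as a blue dotted line. Called points are Klrb1b and Klrg1 among the lectin-like receptors, Tcf7 among maturation genes and Klrg1 again among mature NK markers.

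Outside the lists, the genes with the lowest p that did not pass the test included Kcnj8, Cmah and Gpc1. Kcnj8, which codes for a subunit of ATP-sensitive potassium channels, was at 102.05, 105.44 and 112.06 TPM in SP and at 52.82, 59.36 and 59.78 TPM in TN cells, a difference of -0.88 (95% interval -1.22 to -0.55; limma adjusted p = 0.06015). Cmah, which codes for the enzyme that hydroxylates sialic acid, was at 66.43, 67.07 and 75.53 TPM in SP and at 129.85, 99.77 and 121.14 TPM in TN cells (0.73; 0.44 to 1.03; adjusted p = 0.09405). Gpc1, which codes for the surface proteoglycan glypican, was at 158.67, 165.63 and 164.14 TPM in SP and at 87.27, 125.59 and 106.03 TPM in TN cells (-0.63; -0.95 to -0.30; adjusted p = 0.4548). In all 3 genes the SP and TN libraries were apart.

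The same rule brought up 2 microRNA genes, shown with their mature sequences as the only small RNA genes it named. The sequences are from RefSeq, build GRCm38.p6, with the seed (bases 2 to 8) in capitals.
mmu-miR-343, chr7:19386688-19386707, plus strand: uCUCCCUUcaugugcccaga
mmu-miR-6948-5p, chr14:54643084-54643105, minus strand: aGUUCAGAcaggacugugacac
mmu-miR-6948-3p, chr14:54643050-54643070, minus strand: uGUCCUUCcugucugaccaca
Mir6948 was at 36.06, 35.39 and 68.17 TPM in SP and at 24.69 TPM in TN replicate 1, and was listed at 0 in the other TN libraries (limma adjusted p = 0.2071). Without TN replicate 1 the adjusted p was 1.181e-05. Every TP and wild-type library was also listed at 0, and these values enter the spread behind that p, so it is no measure of a firm difference. Mir343 was listed at 0 in SP replicates 1 and 2 and was at 4.67 TPM in replicate 3, against 5.92, 63.19 and 30.74 TPM in TN cells (adjusted p = 0.3389). The 3 mature sequences have different seeds, and a poly(A) library counts reads over the hairpin gene, not the mature microRNA.

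The same contrast in wild-type mice, whose cells meet the ligand, compares other libraries than the knockout one but shares its estimate of the spread. There, 46 genes were called (0.383%), 22 higher (0.183%) and 24 lower (0.2%), against 5 in knockout mice. The test of the difference between the contrasts called 0 of 12018 genes (0%) by limma, with 675 (5.62%) at an unadjusted p below 0.05 and a smallest adjusted p of 0.1337. That count became 2 without knockout SP replicate 3 or wild-type TN replicate 2, and 1 without knockout TN replicate 1, knockout TN replicate 2 or wild-type SP replicate 2. The wild-type count became 24 without SP replicate 2, 29 without SP replicate 3 and 29 without TN replicate 1. With the 6 libraries of each contrast fitted alone, both genotypes had 2 calls. A larger number of calls in wild-type mice is therefore not, gene by gene, a shown difference between the genotypes.

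Of the 45 wild-type calls other than Klra9, 36 (80%) had the same sign in knockout mice, against 52.28% of all tested genes. They were chosen on their wild-type values, so that their median absolute difference was larger in wild-type mice (0.91) than in knockout mice (0.33) is a description. In knockout mice 17 of the 45 passed an unadjusted p below 0.05 (2.77% of all tested genes did), and 2 were called, Klra13-ps and Klrg1. Both contrasts use the same spread for each gene, so a gene with a small spread passes more easily in both. The count of 17 is therefore a description and no independent test. Klrg1 means were 246 and 69.9 TPM in wild-type SP and TN cells, a difference of -1.79, and the difference between the contrasts was 0.92 (95% interval 0.50 to 1.33; adjusted p = 0.4243 by limma). The knockout SP mean of 82.6 TPM thus lay near the wild-type TN mean. Klra13-ps was at 2901 and 4715 TPM in the wild-type subsets, and the difference between its contrasts was -0.19 (-0.43 to 0.04).

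Klrb1b and Tcf7, called in knockout but not in wild-type mice, had differences of the same sign in both. Klrb1b was at 156 ± 6.74 TPM in wild-type SP and 123.3 ± 13.3 TPM in wild-type TN cells (SD, n = 3), a difference of -0.34 (limma adjusted p = 0.2167), and its levels in both knockout subsets were above those in both wild-type ones. The summed handling stress genes also differed with genotype, from 2296 to 3749 TPM in the knockout SP and TN libraries and from 1153 to 1737 TPM in the wild-type ones, and their part in differences of level between genotypes was not tested. For Klrb1b the difference between the contrasts was -0.49 (95% interval -0.82 to -0.15; limma adjusted p = 0.8273). Tcf7 was at 127 ± 10.6 and 164 ± 12.6 TPM in wild-type SP and TN cells, a difference of 0.37 (adjusted p = 0.1554 by limma). The TN means of the genotypes were close, at 154 and 164 TPM, and the SP means were 93.5 and 127 TPM. The difference between the contrasts was 0.34 (0.03 to 0.65; adjusted p = 0.8648).

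S1pr1 and Ptpn6 were chosen after their values were seen, as genes called in wild-type mice with a knockout difference near 0. S1pr1, which codes for a receptor that guides lymphocytes out of tissues, had means of 152 and 142 TPM in knockout SP and TN cells (-0.10; 95% interval -0.37 to 0.18) and of 43.8 and 87.9 TPM in wild-type ones (0.99; limma adjusted p = 0.001211). The difference between its contrasts, -1.09 (-1.48 to -0.70), did not pass the test (limma adjusted p = 0.1337). Ptpn6, which codes for SHP-1, the phosphatase that inhibitory Ly49 receptors recruit, was at 326.22, 327.91 and 288.95 TPM in knockout SP and at 362.58, 308.64 and 270.53 TPM in knockout TN cells. These values overlapped, with a difference of -0.01 (-0.35 to 0.33). In wild-type mice the means were 145 and 307 TPM (1.11; adjusted p = 0.003557), and the difference between the contrasts, -1.12 (-1.59 to -0.64), had an adjusted p of 0.3354, or 0.0275 without wild-type SP replicate 2.

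**Figure D4:**
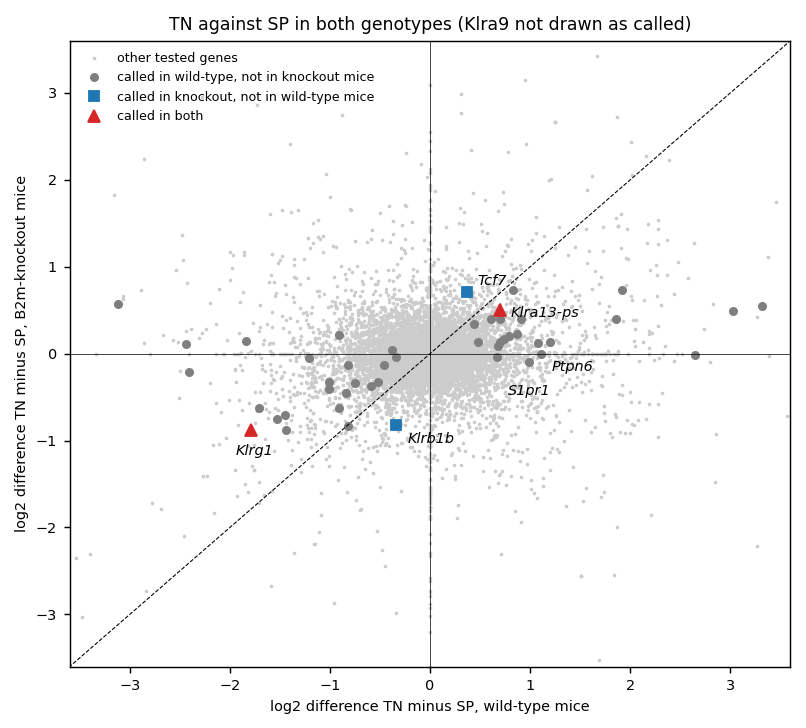
Log2 difference of TN minus SP in wild-type mice (horizontal) against that in B2m-knockout mice (vertical), on the log2(TPM + 1) scale, 1 point a gene, with 17 genes outside the axes and the dashed line marking equal differences. Most genes called in wild-type mice (dark grey) lie nearer to 0 on the knockout axis, S1pr1 and Ptpn6 almost on it, and 2 genes are drawn as called in both (red); Klra9, called in both, is not drawn as called because the sort selected on it.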

How the data were processed

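RNA from sorted splenic NK cells was extracted and 50 ng, with a RIN above 7, went into a KAPA mRNA HyperPrep kit, per the labels' protocols. The submitters' processing notes name STAR, RSEM and GRCm39, without versions. The authors deposited TPM values for 32940 genes, rounded to 2 decimals. TPM keeps no depth, so precision comes from the spread over 3 replicates.

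The 12018 genes that averaged 1 TPM or more across 18 libraries were tested as log2(TPM + 1) with limma 3.58.1 (R 4.3.3) on means of 6 groups with a variance trend, adjusted by Benjamini-Hochberg over all of them. Intervals are 95% intervals of that fit. An exact test of 3 against 3 libraries cannot go below p = 0.1 and was not used. Named genes were the called genes, filled up by p to 8 a direction and marked as not called, called members of 23 gene lists, sort markers, the Ly49 genes, and the 2 members with the lowest p in each other list. The members and lists were chosen with earlier results of these data known. Shared 50-base stretches were counted in GENCODE M21 transcripts (GRCm38), a different build from that of the authors. Alternatives were other pseudocounts, filters, scalings and fits, and leaving out libraries. The fits were tested on simulated data.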

Additional observations from a re-analysis of the deposited data

How the results depend on the processing

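The count of 5 knockout calls was 4 to 5 under other pseudocounts, filters, median-of-ratios rescaling and quantile normalization, and 3 to 9 when 1 library was left out. With no filter, 3 of the 5 were kept and Gm13818 was added. The count became 1, Klra9, without a variance trend, and 2, Klra9 and Ndufa12-ps, with only the 6 libraries compared, where Klrb1b (adjusted p = 0.2993), Tcf7 (0.2652), Klra13-ps (0.4917) and Klrg1 (0.4917) were lost. Without the knockout TP libraries, an alternative chosen after seeing the data because those libraries hold neutrophil and immunoglobulin genes (means of 23.4 TPM for Ltf and 135.5 TPM for Igha), 3 were called, and Klra13-ps (adjusted p = 0.0694) and Klrg1 (0.1161) were not. Tcf7 and Klrb1b were called without the TP libraries and also lost without a trend (0.07388 each). Klra13-ps was also lost with no filter (0.135) and quantile normalization (0.1489), and Klrg1 with no filter (0.05323). With the replicate block 8 genes were called, the 5 and Ly6c2 (0.00319), Kcnj8 (0.01912) and Klra4 (0.01912). Same-numbered knockout libraries deviated together only weakly (correlations of 0.02745, 0.04614 and 0.07034), though each correlated best with its own number. The labels do not say whether a number stands for 1 mouse. The fit reported did not take the numbers as pairs, the block is an alternative, and whether they are pairs was not settled. Klra4 was called without TN replicate 2 (0.04583). The wild-type count of 46 became 2 with only the libraries compared and 24 to 54 with 1 library left out. The count of 0 for the difference between genotypes became 1 with no filter and 0 to 2 with 1 library left out, with 529 to 912 genes at an unadjusted p below 0.05 over all alternatives. No called gene reversed. Of genes not called, B2m turned to -0.028 without TN replicate 3 (up to 0.19 over the libraries left out), Gzma was 0 under quantile normalization, and Ltf and Camp were 0 without SP replicate 2 (down to -0.94 and -0.63). The cause of these changes was not tested. Unknown depth limits low genes, and 3 libraries a group limit all.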

Other observations

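The summed TPM of 10 erythroid and platelet markers was 18.7, 28.8 and 9.78 in knockout SP replicates 1, 2 and 3 and 16.5, 29.1 and 9.18 in knockout TN replicates 1, 2 and 3. The summed TPM of 14 handling stress genes was 2765, 2316 and 3749 in knockout SP and 2903, 2296 and 3738 in knockout TN replicates 1, 2 and 3. The values of same-numbered libraries lay close together, and whether a number stands for 1 mouse is not given by the labels.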
